A study of Mus musculus with 12 samples.

Results

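Interferon-stimulated genes are the genes that cells switch on when interferon binds its receptors. A set of 44 such mouse genes was followed here through all 4 groups of the study. Members were found by the gene name printed for each probe, including the older names Isgf3g (Irf9), G1p2 (Isg15), Tgtp (Tgtp1) and Mda5 (Ifih1), and the matching used no measured value, although the set itself was drawn up with earlier results of these data known. Of the 44 genes, 41 had at least 1 probe, among 27670 gene names on the array, and together they had 63 probes. Gbp3, Dhx58 and Xaf1 had no probe under these names. For each gene the brightest usable probe was taken. A probe was usable if, in some group, every one of the 3 arrays had it well above background by the scanner's call, and 39 of the 41 genes passed. The other two were Oas1g, well above background on 0 of 12 arrays, and Mx1, on 3 of 12.

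The cells were mouse embryonic fibroblasts (MEFs), primary connective tissue cells grown from E12.5 embryos on a C57Bl/6 background. WT cells carried the normal glucocorticoid receptor gene, Nr3c1. Homozygous GR-C3 knockin cells carried a mutant exon 2 in which only the start codon of the GR-C3 translational isoform was left intact, and the line came from 1 embryonic stem cell clone. Cells of either genotype were kept for 6 h with vehicle or with dexamethasone (Dex, a synthetic glucocorticoid) at 100 nM, and no interferon was named in the labels. Each of the 4 groups (WT vehicle, WT Dex, GR-C3 vehicle, GR-C3 Dex) had 3 arrays, called biological replicates in the labels, with no word on whether they came from separate embryos. The p-values therefore measure the spread between these samples only. In bulk RNA, fewer cells of a type and less RNA per cell cannot be told apart.

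Type I interferons act through a transcription factor complex that holds Stat2 and Irf9 and binds the interferon-stimulated response element (ISRE). Interferon gamma acts in part through the GAS element and through Irf1. The induced proteins block viral RNA and protein synthesis, sense foreign nucleic acid and present antigen on MHC class I. Fibroblasts keep a low level of this program without added interferon, and glucocorticoids are known to dampen inflammatory gene expression in many cells.

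The promoter sequences are shown because members carry the ISRE core far more often than most genes, a feature the choice of members did not use. RefSeq promoters (build GRCm38.p6) were matched by symbol for 34 of the 44 members, and the 250 bases before each start were searched on both strands. The ISRE core GAAANNGAAA lay in 14 of these 34 members (41.2%) and in 3.46% of all 27025 genes in the table. The GAS element TTCNNNGAA lay in 9 members (26.5%) and in 8.13% of all genes. The full glucocorticoid receptor palindrome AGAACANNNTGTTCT lay in 0 members and in 0.011% of all genes. Matches of 1 motif may overlap, and in Bst2 an ISRE core overlapped a GAS element. Stretches around the ISRE cores of 8 members that differed between groups, and of Isg15, which was not called, read as follows on the gene's own strand, with the ISRE core in capitals.
Ifit1, chr19:34640770-34640828, plus strand: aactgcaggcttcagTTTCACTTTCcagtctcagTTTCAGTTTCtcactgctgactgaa
Ifit3, chr19:34583358-34583431, plus strand: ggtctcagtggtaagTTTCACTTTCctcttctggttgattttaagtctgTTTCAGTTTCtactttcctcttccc
Bst2, chr8:71537572-71537617, minus strand: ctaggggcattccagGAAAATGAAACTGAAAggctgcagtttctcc
Tgtp1, chr11:48992299-48992338, minus strand: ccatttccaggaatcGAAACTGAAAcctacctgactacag
Igtp, chr11:58199507-58199546, plus strand: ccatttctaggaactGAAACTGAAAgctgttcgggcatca
B2m, chr2:122147533-122147572, plus strand: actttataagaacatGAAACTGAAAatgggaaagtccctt
Gbp2, chr3:142620589-142620628, plus strand: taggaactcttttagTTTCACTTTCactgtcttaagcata
Socs1, chr16:10785589-10785634, minus strand: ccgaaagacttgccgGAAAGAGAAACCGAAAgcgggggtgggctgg
Isg15, chr4:156200860-156200911, minus strand: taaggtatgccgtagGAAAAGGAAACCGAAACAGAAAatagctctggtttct
The Ifit1 matches began 104 and 85 bases before the start, and the single Igtp match began 34 bases before it. These matches describe letters in a window and show no binding.

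Before the results, 1 array needs a remark. Levels are given as the log2 of the signal after dividing by each array's own 75th percentile, which was 884 to 1821 intensity units. The scanner called 70.7 to 78.5% of probes detected above background. Fkbp5, a standard glucocorticoid target, stood at 1.51 on the array labelled WT vehicle 1, against -2.64 and -2.74 on the other vehicle arrays of WT and 1.89 to 2.15 on the WT Dex arrays. Per1, another such target, showed the same split, with 1.66 against -0.39 and -0.46. Nr3c1 was 1.20 on that array, 1.80 on the other two, 1.06 to 1.26 under Dex in WT, and 1.83 to 1.86 (vehicle) and 1.39 to 1.53 (Dex) in GR-C3. That array was also the only one on its slide and the only one scanned on another day, so slide and array cannot be told apart. As that array was set apart partly for levels near those of WT Dex, leaving it out favours a Dex difference in WT. The p-values of the fit without it are therefore too favourable for Dex in WT and for the interaction. Counts of calls are given with all 12 arrays and without WT vehicle 1. Of the calls with 12 arrays, all 17 by genotype under vehicle and all 16 under Dex were also made without it, so their values stand once, with 12 arrays, unless another fit is named. Of the 38 members with a value on it, 27 lay nearer there to the WT Dex mean than to the mean of WT vehicle 2 and 3. Fibroblast markers (11 of 11 genes usable) summed to 795 to 1081 times the 75th percentile over the 12 arrays. Macrophage and leukocyte markers (11 of 12) summed to 5.27 to 8.70. Endothelial markers (5 of 8) summed to 4.06 to 6.14 and epithelial ones (4 of 8) to 0.611 to 2.60, with Pecam1, Cdh5, Tie1, Epcam, Cdh1, Cldn4, Esrp1 and the leukocyte gene Itgam not usable.

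**Figure D1:**
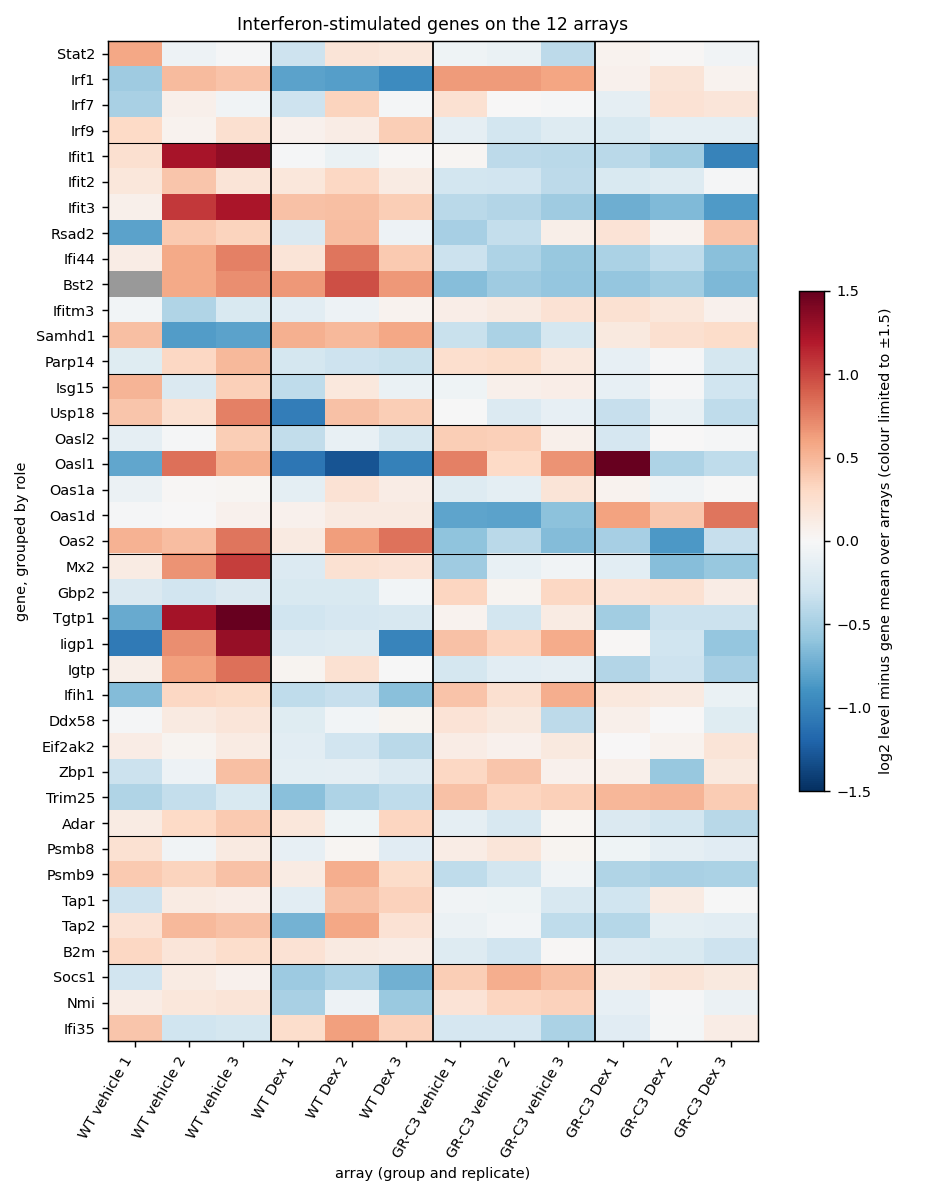
Level of each of the 39 usable members (rows, grouped by role) on the 12 arrays (columns), as the log2 level minus the gene's mean over the arrays. Colour is limited to 1.5 in either direction and grey marks the missing Bst2 spot. Bst2, Ifit3 and Ifi44 are lower on all GR-C3 arrays than on the WT arrays, and WT vehicle 1 resembles the WT Dex columns for Irf1, Tgtp1 and Samhd1.

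The first comparison asked which members Dex changed in WT cells. With all 12 arrays 0 members were called. In the fit without WT vehicle 1, Dex lowered 12 of 39 members and raised 2. The largest called falls were in the GTPase Tgtp1 (3.17-fold), the GTPase Iigp1 (2.76-fold), the transcription factor Irf1 (2.48-fold) and the antiviral effector Ifit1 (2.48-fold). Samhd1, which hydrolyses dNTPs, rose 2.55-fold. With all 12 arrays 11 members had an unadjusted limma p under 0.05, beside 3472 of all 20836 genes. Calls use limma with Benjamini-Hochberg adjustment over 20836 genes at an adjusted p under 0.05. Among all genes, Dex in WT called 0.0384% higher and 0.0816% lower with 12 arrays, and 5.38% higher and 6.85% lower without WT vehicle 1. The median change of the members was -0.16 with 12 arrays and -0.21 without WT vehicle 1, beside 0.00 and 0.02 over all genes, and 29 of 39 members had a negative value in both fits.

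Irf1 is a transcription factor that carries the interferon gamma response to its targets. It read 1.87 and 1.83 on WT vehicle 2 and 3, 0.86 on WT vehicle 1, and 0.59, 0.57 and 0.45 on the WT Dex arrays. All 3 vehicle arrays lay above all Dex arrays. The change was -1.31 ± 0.09 (SE; limma adjusted p = 1.44e-05) without WT vehicle 1 and -0.98 ± 0.22 (adjusted p = 0.105) with it. The second Irf1 probe gave -0.96 without that array. The other transcription factors of the set, Stat2, Irf7 and Irf9, had values of 0.06, -0.02 and 0.03 without WT vehicle 1, none called.

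Among the antiviral effectors, Ifit1, which binds viral RNA lacking host cap methylation, read -2.52 and -2.43 on WT vehicle 2 and 3, -3.52 on WT vehicle 1, and -3.77, -3.86 and -3.74 under Dex. The groups did not overlap, and WT vehicle 1 lay close to the Dex arrays. The change without it was -1.31 ± 0.18 (limma adjusted p = 0.00144). Ifit3, a partner of Ifit1, read 0.59 and 0.75 on WT vehicle 2 and 3, -0.40 on WT vehicle 1, and -0.03, -0.02 and -0.10 under Dex. Here WT vehicle 1 lay below every Dex array, and the change was -0.72 ± 0.09 without it and -0.36 with it. Parp14, an ADP-ribosyltransferase, fell by 0.70 ± 0.10 without WT vehicle 1 (adjusted p = 0.00162). Samhd1 moved the other way, from 0.38 and 0.42 on WT vehicle 2 and 3 to 1.75, 1.71 and 1.80 under Dex, and WT vehicle 1 was at 1.66. Its rise without WT vehicle 1 was 1.35 ± 0.09 (adjusted p = 1.56e-05), and the second Samhd1 probe gave 1.16. Ifit2, Rsad2, Ifi44, Bst2 and Ifitm3 were not called, with values from -0.31 (Rsad2) to 0.28 (Ifitm3).

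Of the 5 GTPases, 4 fell in WT without WT vehicle 1. Tgtp1, an immunity-related GTPase that attacks pathogen vacuoles, read -0.92 and -0.60 on WT vehicle 2 and 3, -2.92 on WT vehicle 1, and -2.46, -2.41 and -2.40 under Dex. WT vehicle 1 was the lowest of the 6 WT arrays. The change without it was -1.66 ± 0.14 (limma adjusted p = 5.72e-05). The second Tgtp1 probe gave 0.12, so the probes of this gene disagree, and their mean gave -0.77 (adjusted p = 0.0206). Iigp1, a GTPase of the same family, read -3.61 and -3.01, then -5.37 on WT vehicle 1, and -4.52, -4.51 and -5.30 under Dex, a change of -1.47 ± 0.27 (adjusted p = 0.00686). Igtp (-0.64 ± 0.11) and Mx2 (-0.78 ± 0.21), an antiviral dynamin-like GTPase, also fell, with adjusted p of 0.00478 and 0.0395. Gbp2 had a value of 0.08 and was not called.

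Among sensors and regulators, Ifih1 (MDA5, a sensor of long double-stranded RNA) fell by 0.75 ± 0.13 and Eif2ak2 (PKR, an RNA-activated kinase) fell by 0.37 ± 0.10, with limma adjusted p of 0.00488 and 0.0438 without WT vehicle 1. Socs1, a feedback inhibitor of Jak kinases, read 0.21 and 0.14 on WT vehicle 2 and 3, -0.20 on WT vehicle 1, and -0.46, -0.38 and -0.64 under Dex. The groups did not overlap, and the fall was 0.67 ± 0.10 (adjusted p = 0.00193). Nmi, an interferon-induced adaptor protein, fell by 0.55 ± 0.13 and its partner Ifi35 rose by 0.69 ± 0.13 (adjusted p = 0.0252 and 0.00785). The oligoadenylate synthetase family and the 5 antigen presentation genes had 0 calls in either fit. Oasl1 had the lowest value, -1.81, but it was not well above background on any WT Dex array.

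The slides bear on these values. WT vehicle 2 and 3 shared a slide with WT Dex 1 only. Slide as a block draws on these 3 arrays alone for Dex in WT, so its estimate rests on 1 Dex array, with a spread pooled over all arrays that share a slide. It called 9 members lower and 1 higher, beside 4.89% of all genes in either direction, and the fit within that slide is the same estimate. There Irf1 was at -1.26, Ifit1 at -1.30, Tgtp1 at -1.70 and Samhd1 at 1.35, all called, while Iigp1 (-1.21), Mx2 (-1.06), Ifih1 (-0.68), Nmi (-0.66), Ifi35 (0.55) and Eif2ak2 (-0.24) were not. The members called lower with slide as a block were not all among those lowered without WT vehicle 1. Those in both were Irf1, Ifit1, Ifit3, Tgtp1, Igtp, Parp14 and Socs1. WT Dex 1 stood apart from WT Dex 2 and 3 for Usp18 (-4.31 against -2.83 and -2.91) and Tap2 (-1.29 against -0.002 and -0.37). With all 12 arrays Parp14 was at -0.51, Igtp at -0.43, Mx2 at -0.54, Iigp1 at -0.78, Tgtp1 at -0.95, Ifih1 at -0.43 and Socs1 at -0.54, none called. With 12 arrays and normexp correction on the deposited local backgrounds the values of Ifit1, Iigp1, Mx2, Parp14, Tgtp1 and Ifih1 turned positive (0.22 to 1.72, none called), while the median of all genes moved to 0.55. Of 11 leukocyte markers 2 were lower without WT vehicle 1, beside 6.85% of all genes. They were Ptprc (CD45) at -1.12 ± 0.19 and Adgre1 at -0.43 (limma adjusted p = 0.00379 and 0.0315). Kdr (-0.51) and Krt18 (-0.81) were lower and the fibroblast genes Pdgfra (0.94) and Postn (0.84) higher. The part of these cell type markers in the members' changes was not tested.

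**Figure D2:**
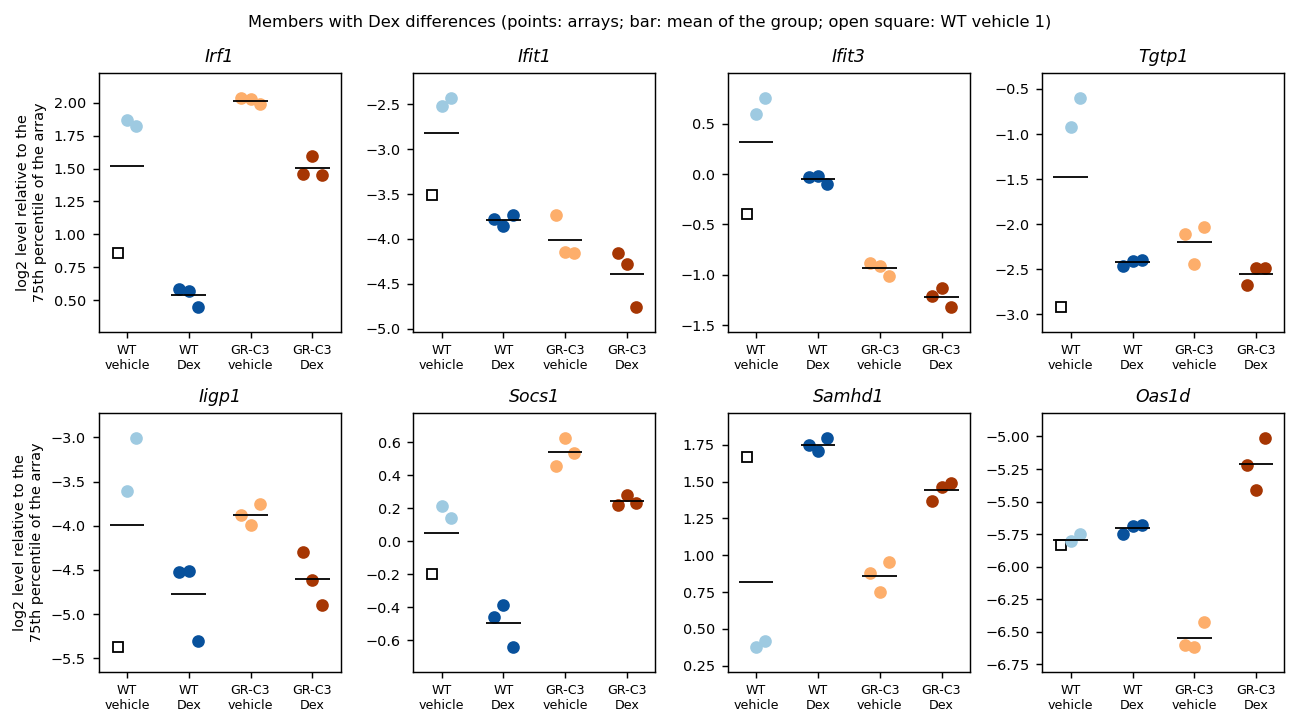
Log2 level of 8 members on each array, by group. Points are arrays, bars are group means and the open square is WT vehicle 1. On Irf1, Ifit1, Tgtp1, Iigp1 and Samhd1 that square lies nearer the WT Dex points than WT vehicle 2 and 3 do, and on Oas1d the GR-C3 Dex points lie above all others.

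In GR-C3 cells fewer members were called. With all 12 arrays Dex raised 1 of 39, Oas1d, and lowered 0. Without WT vehicle 1, which changes only the shared estimate of spread here, Oas1d and Samhd1 rose and Irf1 fell. All genes gave 0.0768% higher and 0.024% lower with 12 arrays, and 2.09% higher and 1.37% lower without WT vehicle 1. The median change of the members was -0.10, beside -0.01 over all genes, and 27 of 39 members had a negative value.

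Oas1d, of the oligoadenylate synthetase family, read -6.60, -6.61 and -6.43 on the GR-C3 vehicle arrays and -5.22, -5.41 and -5.01 under Dex. The groups did not overlap, and the change was 1.33 ± 0.11 (limma adjusted p = 0.00219 with 12 arrays). This is a dim probe. It cleared background on 2 of the 3 arrays of GR-C3 vehicle and on all 9 others. It was not called with normexp background correction. Irf1 read 2.03, 2.03 and 1.99 on GR-C3 vehicle arrays and 1.46, 1.59 and 1.45 under Dex, a change of -0.52 ± 0.08 (adjusted p = 0.00649 without WT vehicle 1). The second Irf1 probe gave 0.12, with the opposite sign, and the mean of its probes gave -0.20, not called. Samhd1 read 0.88, 0.75 and 0.95 and then 1.37, 1.46 and 1.49, a change of 0.58 ± 0.08 (adjusted p = 0.00421), with 0.44 for the mean of its probes, not called.

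The direct test of the genotypes' Dex responses is the interaction, the Dex change in GR-C3 minus that in WT. With all 12 arrays 0 of 39 members were called, and all genes gave 0% higher and 0% lower. At an unadjusted limma p under 0.05 were 2 members, beside 1282 of all 20836 genes. In the fit without that array, 4 members were called: Tgtp1, Oas1d and Irf1 higher, Samhd1 lower. All genes then gave 0.322% higher and 0.816% lower. Irf1 fell less in GR-C3 than in WT (difference 0.80 ± 0.12, adjusted p = 0.0134) and Samhd1 rose less (-0.77 ± 0.12, adjusted p = 0.0193). Tgtp1, whose change in GR-C3 was -0.36, differed by 1.31 ± 0.19 (adjusted p = 0.0125), and by 0.89 with the mean of its probes, not called. Oas1d, with 0.07 in WT, differed by 1.26 ± 0.16 (adjusted p = 0.00701). With slide as a block 0 of these 4 were called, and 0.173% of all genes were. For the other 11 members called in WT alone, Ifit1, Iigp1, Socs1 and Ifit3 among them, the interaction did not pass, so a smaller change in GR-C3 was not shown for them.

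**Figure D3:**
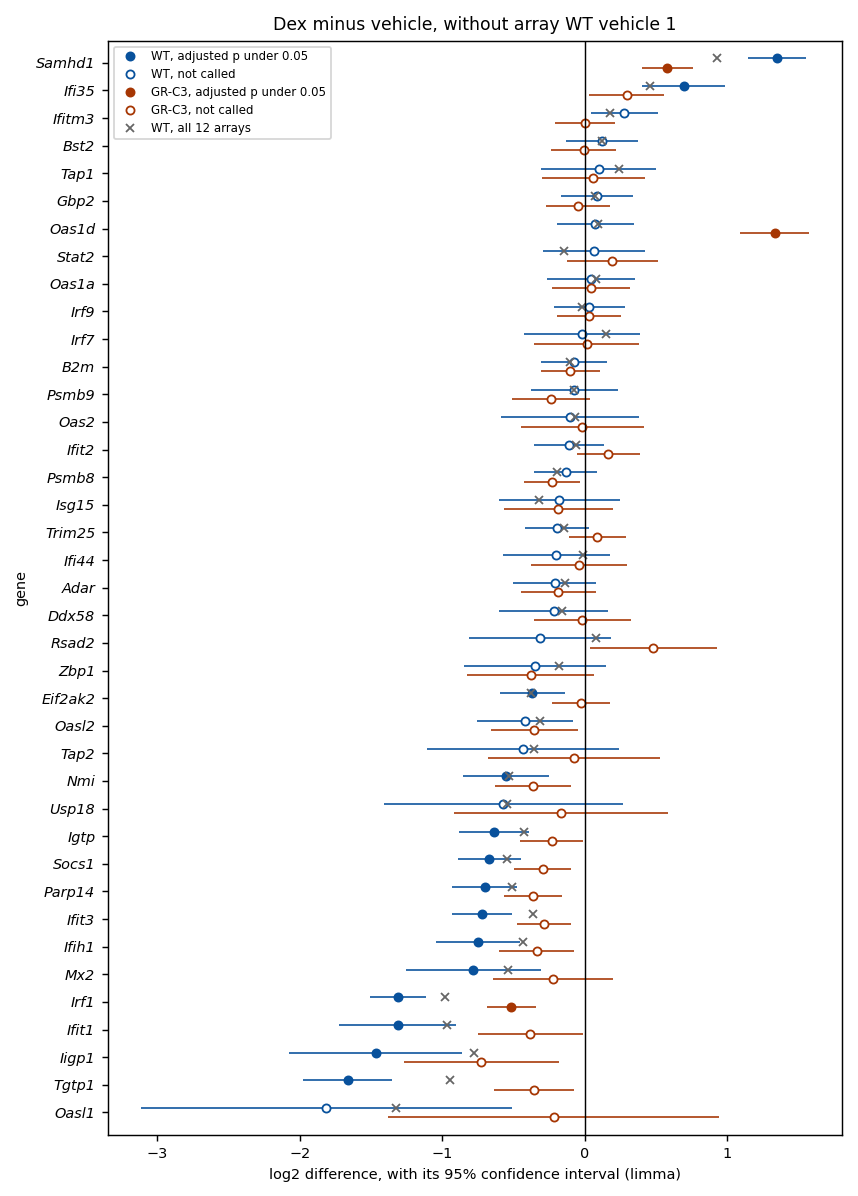
Dex minus vehicle for each member in WT (blue) and GR-C3 (brown), as a log2 difference with its 95% confidence interval, without WT vehicle 1. Filled points passed an adjusted p under 0.05 and grey crosses give WT with all 12 arrays. Tgtp1, Iigp1, Ifit1 and Irf1 lie furthest left among filled WT points, and the crosses lie nearer 0 than the WT points for these genes.

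The next comparison asked which members differed between the genotypes before Dex. With all 12 arrays 13 of 39 members were lower in GR-C3 and 4 were higher. Leaving aside Oas2, which passed the filter through WT vehicle alone, 12 were lower. The lower ones included the effectors Ifit1, Ifit2, Ifit3, Ifi44 and Bst2, with Ifit3 lower 2.37-fold and Bst2 lower 2.33-fold, while Trim25 was higher 1.65-fold. Among all genes 14.6% were higher and 10.2% lower. Without WT vehicle 1, 14 were lower and 5 higher, beside 11.1% and 16.2% of all genes. Leaving aside Oas2, 13 were lower in that fit. Leaving out GR-C3 vehicle 2 left 11 calls, and Adar, B2m, Ifitm3, Irf9, Mx2 and Socs1 were among those lost. With normexp background correction on the deposited local backgrounds 1 member was called. Calls over all genes fell as well in these alternatives, from 5160 to 3241 and 377 in the same order. The median of the members was -0.18 in both fits, and that of all genes was 0.11 with 12 arrays and 0.12 without WT vehicle 1.

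Under Dex, 10 of 39 members were lower in GR-C3 and 6 higher with 12 arrays, beside 12.1% and 17.5% of all genes. Leaving out WT vehicle 1, which again changes only the spread here, made 14 lower and 8 higher, beside 16.1% and 24.6%. Leaving aside Oas2 and Oasl1, which each passed the filter through 1 group alone, 13 were lower and 7 higher in that fit. Leaving out GR-C3 Dex 3 left 10 calls, without Adar, B2m, Eif2ak2, Gbp2, Igtp and Irf9, and normexp left 1. Calls over all genes fell from 6175 to 4001 and 455 in the same order. The median of the members was -0.04, and that of all genes was 0.13. These comparisons use no array in common, but they set the same genotypes against each other and share the estimate of spread. With 12 arrays, 10 members were lower in both, which is 76.9% of those lower under vehicle and 100% of those lower under Dex. The same overlap over all genes was not computed, so these shares have no baseline. Gbp2, Socs1 and Trim25 were higher in both. Oas2 passed the filter through WT vehicle alone, and without it the lower members were 12 under vehicle, 9 under Dex and 9 in both.

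Bst2 (tetherin), which holds budding virus on the cell surface, gave the smallest p-values among lower members with 12 arrays. It read 2.69 and 2.81 on WT vehicle 2 and 3 and 2.76, 3.08 and 2.77 on WT Dex arrays, against 1.48, 1.58 and 1.54 (vehicle) and 1.54, 1.59 and 1.44 (Dex) in GR-C3. No GR-C3 array reached the WT range. The WT vehicle 1 spot carried an outlier call and was left out, so the 12-array fit holds 11 values for this gene. The difference was -1.22 ± 0.13 under vehicle and -1.35 ± 0.11 under Dex (limma adjusted p = 0.000101 and 2.33e-05).

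The Ifit genes were lower together. Ifit3 read -0.88, -0.91 and -1.01 in GR-C3 under vehicle and -1.20, -1.13 and -1.32 under Dex, below all 6 WT arrays. The difference was -1.25 ± 0.24 under vehicle and -1.17 ± 0.24 under Dex (limma adjusted p = 0.00332 and 0.00423), and -1.60 under vehicle without WT vehicle 1. Ifit2 read -1.30, -1.05 and -1.28 in WT under vehicle and -1.75, -1.76 and -1.87 in GR-C3, with no overlap and a difference of -0.58 ± 0.11 (adjusted p = 0.003). Under Dex that of Ifit2 was -0.35 ± 0.11 (adjusted p = 0.0328), and -0.23 with the mean of its probes, not called. Ifit1 was lower in GR-C3 by -1.19 ± 0.27 under vehicle (adjusted p = 0.0082) and had -0.61 under Dex, which passed only without WT vehicle 1 (adjusted p = 0.0157). Ifi44 read -2.68, -2.22 and -2.03 in WT under vehicle and -3.12, -3.25 and -3.36 in GR-C3, a difference of -0.93 ± 0.19, and -0.96 ± 0.19 under Dex (adjusted p = 0.00473 and 0.0036). Ifitm3, which blocks virus entry, was higher in GR-C3 under vehicle (0.39 ± 0.12, adjusted p = 0.0342) and not called under Dex (0.21).

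Irf9, the DNA-binding partner of Stat2, was modestly lower, by -0.40 ± 0.11 under vehicle and -0.35 ± 0.11 under Dex (limma adjusted p = 0.0223 and 0.0341). It read -0.46, -0.72 and -0.52 in WT under vehicle and -0.91, -1.04 and -0.97 in GR-C3, without overlap. Irf1 went the other way under Dex, by 0.96 ± 0.22 (adjusted p = 0.00767). Under vehicle Irf1 had 0.50 with 12 arrays and 0.17 without WT vehicle 1, not called in either.

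For antigen presentation, the immunoproteasome subunit Psmb9 read -1.69, -1.76 and -1.65 in WT under vehicle and -2.47, -2.37 and -2.14 in GR-C3. B2m, the light chain of MHC class I, read 5.40, 5.27 and 5.35 against 4.89, 4.80 and 5.10. Neither overlapped between genotypes under vehicle. Psmb9 differed by -0.63 ± 0.12 under vehicle and -0.78 ± 0.12 under Dex (limma adjusted p = 0.0044 and 0.00104), and B2m by -0.41 ± 0.10 and -0.40 ± 0.10 (adjusted p = 0.0138 and 0.0128). Psmb8, Tap1 and Tap2, another subunit and the peptide transporter, were not called in any comparison.

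Among sensors and GTPases, Trim25, a ubiquitin ligase that acts on RIG-I, read 0.45, 0.55 and 0.68 in WT under vehicle and 1.35, 1.23 and 1.26 in GR-C3. It was higher by 0.72 ± 0.10 under vehicle and 0.95 ± 0.10 under Dex (limma adjusted p = 0.000562 and 7.75e-05). Its second probe gave 1.22 and 1.71 without WT vehicle 1. Gbp2, a guanylate-binding protein, was higher by 0.46 ± 0.11 and 0.35 ± 0.11 (adjusted p = 0.00925 and 0.0314). The immunity-related GTPase Igtp was lower by -0.69 ± 0.16 and -0.50 ± 0.16 (adjusted p = 0.011 and 0.042). The Igtp call under Dex was lost under 14 of 27 alternatives, 10 of which left out 1 array. Adar, an RNA-editing enzyme, was lower by -0.39 ± 0.13 and -0.44 ± 0.13 (adjusted p = 0.0463 and 0.0253), but its second probe gave 0.07 and -0.07 without WT vehicle 1, and the mean of its probes was not called. Eif2ak2 was higher under Dex, by 0.36 ± 0.10 (adjusted p = 0.0182). Socs1 read 0.46, 0.63 and 0.54 in GR-C3 under vehicle against -0.20, 0.21 and 0.14 in WT, and was higher by 0.49 ± 0.12, and by 0.74 ± 0.12 under Dex (adjusted p = 0.0149 and 0.0014).

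Members without a call over 12 arrays in 1 or both comparisons could pass without WT vehicle 1. Tgtp1 read -2.11, -2.44 and -2.04 in GR-C3 under vehicle, below WT vehicle 2 and 3 and above WT vehicle 1, and its difference without that array was -1.43 ± 0.14 (limma adjusted p = 7.32e-05). The second Tgtp1 probe gave 0.10. Samhd1 was then higher under vehicle (0.46 ± 0.09, adjusted p = 0.0048) and lower under Dex (-0.31 ± 0.08, adjusted p = 0.0137), but its second probe gave -0.55 and -1.42. With the mean of its probes Samhd1 was at -0.05 under vehicle, not called, and at -0.87 under Dex, called. Under Dex, Ifih1 was higher (0.52 ± 0.12) and Ifi35 lower (-0.44 ± 0.12), with adjusted p of 0.00672 and 0.0152.

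Some dim members need their limits beside them. Oas2 was well above background on 3 WT vehicle arrays, 1 WT Dex array and 0 GR-C3 arrays, and its fitted difference was -1.15 ± 0.19 under vehicle. Since it passed the filter only through the group where it was high, this is a description, with no test. Against the lowest detectable signal it was at least 1.15-fold lower in GR-C3 under vehicle. Under Dex no such bound is given, as Oas2 was well above background on only 1 WT Dex array. Its sign turned under vehicle with both normexp background corrections. Oas1d was lower under vehicle, by -0.75 ± 0.11 (adjusted p = 0.000772), and higher under Dex, by 0.49 ± 0.11 (adjusted p = 0.00824). Its sign under vehicle turned with both corrections over 12 arrays. Mx2 was lower under vehicle by -0.85 ± 0.24 (adjusted p = 0.0244), and its sign turned with normexp on the deposited backgrounds. Oasl1 read -4.33, -6.72 and -6.63 under Dex in GR-C3 and -7.34, -7.55 and -7.27 in WT. The high value is GR-C3 Dex 1, the single one of these 6 arrays on which it was well above background. Oasl1 passed the filter through GR-C3 vehicle alone, so its difference of 1.49 ± 0.52 is a description, with no test. It was counted among the calls without WT vehicle 1. The difference was 0.71 and not called without GR-C3 Dex 1, and -0.83 and not called with normexp on the deposited backgrounds.

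**Figure D4:**
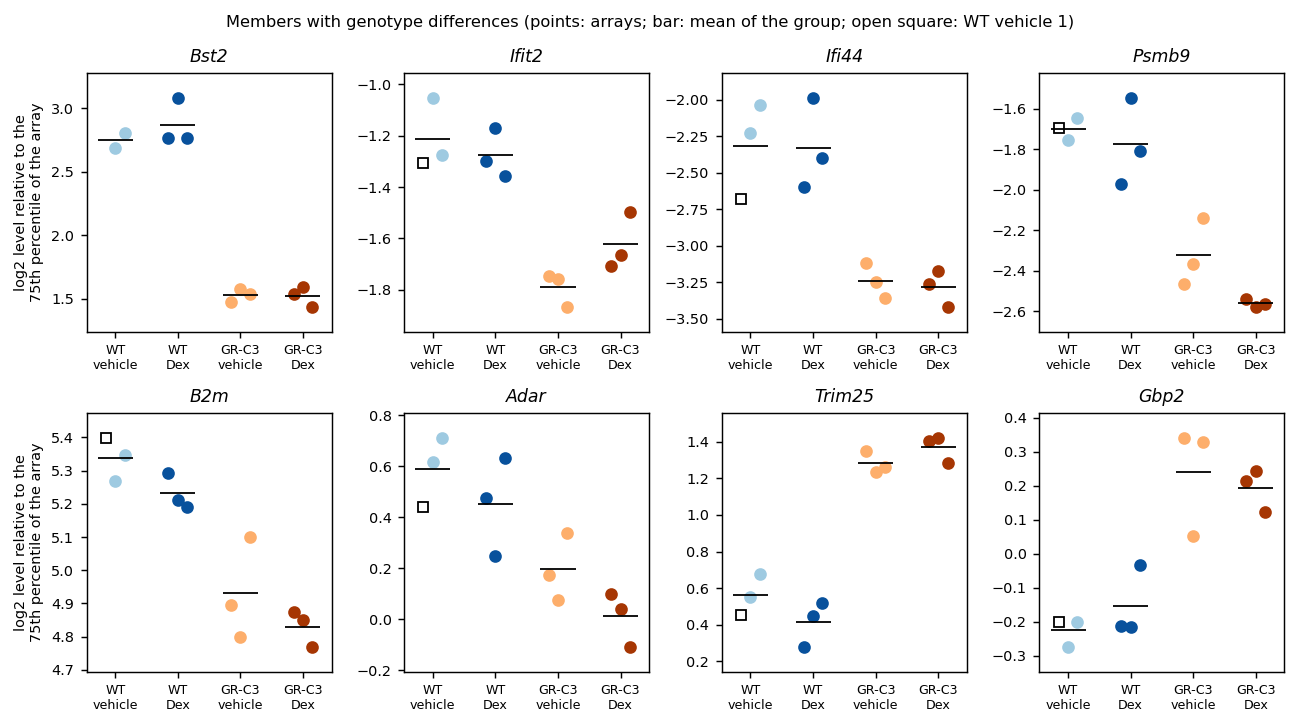
Log2 level of 8 members on each array, by group. Points are arrays, bars are group means and the open square is WT vehicle 1, which is missing for Bst2. Bst2, Ifit2, Ifi44 and Psmb9 lie lower on every GR-C3 array than on any WT array, and Trim25 and Gbp2 lie higher.

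Other genotype calls also hung on single arrays. Leaving out 1 array lost the Adar call under vehicle for 9 of the 12 arrays and Ifitm3 for 6. Leaving out GR-C3 vehicle 1 or 2 lost B2m under vehicle, leaving out WT vehicle 3, GR-C3 vehicle 2 or 3 lost Irf9, and leaving out WT vehicle 2 or 3 or GR-C3 vehicle 1 or 2 lost Mx2. Under Dex, Gbp2 was lost for 5 arrays, and Irf9, Ifit2 and Adar for 4 each, all of them WT Dex or GR-C3 Dex arrays. Eif2ak2 was lost without WT Dex 3 or GR-C3 Dex 3. The calls of Bst2, Ifit3, Ifi44, Psmb9 and Trim25 were lost for 0 arrays under either treatment.

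No slide held both genotypes under 1 treatment, so within-slide differences could not be had. The 1 slide with both genotypes held WT Dex 2 and 3 and GR-C3 vehicle 1 and 2. With slide as a block, both genotype differences rest on that comparison across treatments. The one under vehicle is linked through WT Dex 1 alone, and the one under Dex through GR-C3 vehicle 3 alone. They are therefore not separate results. With slide as a block, 12 members were lower and 0 higher under vehicle, and 7 lower and 3 higher under Dex, beside 7.82% and 15.6% of all genes in either direction. Bst2 (-1.38 and -1.41), Ifit3 (-1.53 and -1.04), Ifi44 (-1.45 and -0.91) and Psmb9 (-1.01 and -1.16) were called under both treatments, while Trim25 was called under Dex only (0.91). Irf9 (-0.53 and -0.42), Ifit2 (-0.62 and -0.24) and Adar (-0.50 and -0.64) were not called. The summed level of the leukocyte markers was 7.07 to 8.70 in WT vehicle, 6.68 to 7.66 in WT Dex, 6.25 to 6.73 in GR-C3 vehicle and 5.27 to 5.75 in GR-C3 Dex. Of 11 such genes, Ptprc (-1.25 ± 0.31) and Lyz2 (-0.39 ± 0.11) were lower and Laptm5 (0.45 ± 0.15) higher under vehicle (limma adjusted p = 0.0148, 0.0293 and 0.0438), with a list median of 0.18. Under Dex 2 were lower and 3 higher, with a median of -0.01. Among all genes 14.6% were higher and 10.2% lower under vehicle, and 17.5% and 12.1% under Dex. Under vehicle 2 of 4 usable epithelial markers were higher, with keratin Krt18 at 2.30. So were 2 of 5 endothelial ones, Emcn (1.89) and Kdr (1.44). Of 11 fibroblast markers 2 were lower. Under Dex 2 epithelial markers were higher and 1 lower, 2 endothelial ones higher and 3 fibroblast ones lower. Epithelial sums were 0.765 to 0.873 in WT vehicle and 0.611 to 0.877 in WT Dex. They were 2.28 to 2.60 in GR-C3 vehicle and 1.79 to 1.93 in GR-C3 Dex. Endothelial sums, in that order, were 4.72 to 5.29, 4.06 to 5.37, 5.98 to 6.14 and 5.72 to 5.96. Their part in the members' differences was not tested.

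**Figure D5:**
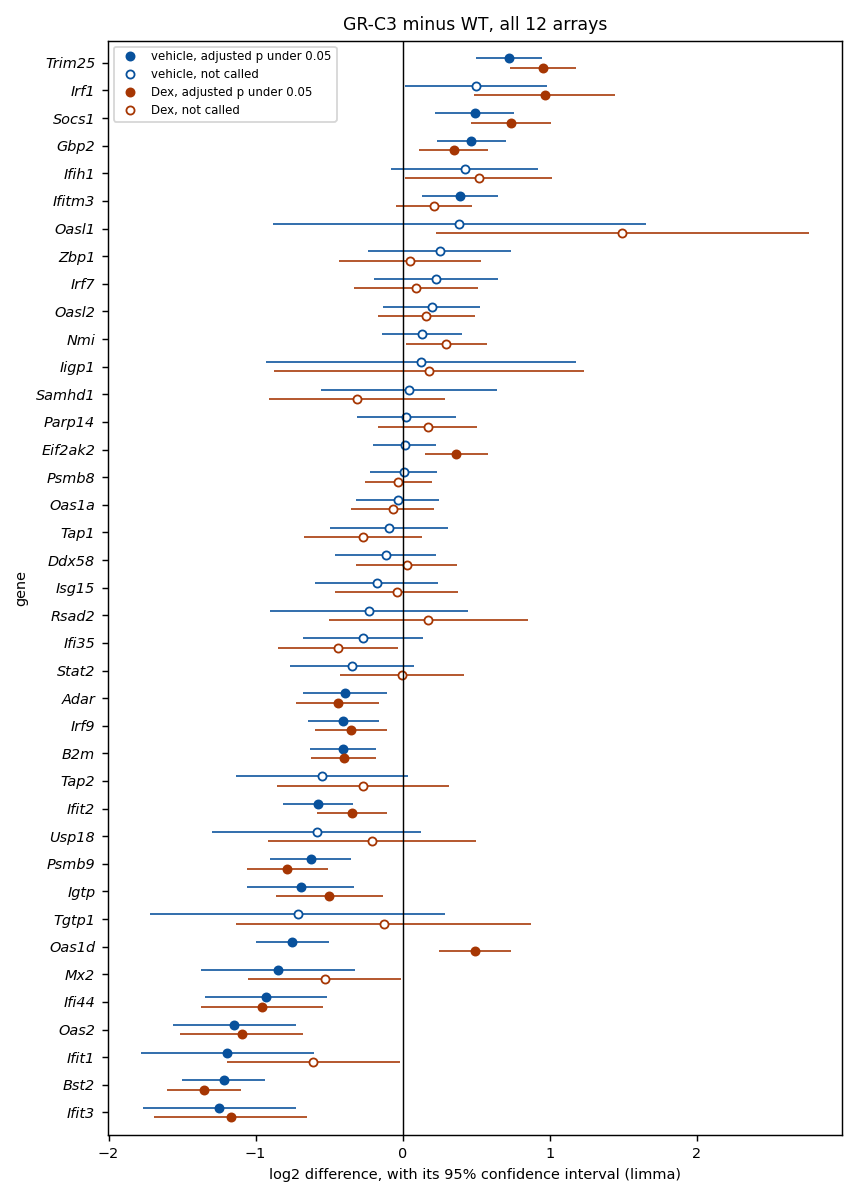
GR-C3 minus WT for each member under vehicle (blue) and Dex (brown), as a log2 difference with its 95% confidence interval over all 12 arrays. Filled points passed an adjusted p under 0.05. Ifit3, Bst2 and Ifi44 are filled on the left under both treatments, Trim25 and Socs1 on the right, and Oas1d changes side. Oas2 is also filled on the left, but it passed the filter through WT vehicle alone, so its points are a description with no test.

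In all, 12 of the 39 members were called in no comparison of either fit: Stat2, Irf7, Isg15, Usp18, Rsad2, Oasl2, Oas1a, Ddx58, Zbp1, Psmb8, Tap1 and Tap2. Among them are Isg15, the ubiquitin-like modifier, and Usp18, its protease, whose Dex changes in WT without WT vehicle 1 were -0.18 and -0.57, and those in GR-C3 -0.19 and -0.17. The file places the Isg15 probe on chromosome 17 and RefSeq the gene on chromosome 4, so that value may not measure Isg15. For the other usable probes of the members the chromosomes matched. Gbp3 and Dhx58 could be reached through RefSeq accessions under other printed names. They stand outside the counts, with 0.06 and -0.13 for Dex in GR-C3, not called, and Dhx58 at -0.53 for Dex in WT without WT vehicle 1 (limma adjusted p = 0.0139).

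Of the members whose promoters were matched and which were usable, 12 held the ISRE core and 19 did not. In the fit without WT vehicle 1, Dex in WT lowered 5 of the 12 and 4 of the 19, and raised 0 and 2, beside 6.85% of all genes lowered and 5.38% raised. With 12 arrays, 5 of the 12 and 5 of the 19 were lower in GR-C3 under vehicle, beside 10.2% of all genes, with medians of -0.38 and 0.01. Higher were 2 of the 12 and 2 of the 19, beside 14.6% of all genes. Under Dex 4 of the 12 and 5 of the 19 were lower, beside 12.1%, with medians of -0.10 and 0.03. There 2 of the 12 and 3 of the 19 were higher, beside 17.5%.

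The rest of the pathway was read from lists that named no member. Shares of all genes called by genotype with 12 arrays were 14.6% higher and 10.2% lower under vehicle, and 17.5% and 12.1% under Dex. Of 13 ligand, receptor and kinase genes 9 were usable. The ligands Ifnb1, Ifna2, Ifna4 and Ifng were not, and of the usable ones Il10rb alone was called with 12 arrays, higher in GR-C3 under vehicle (0.30 ± 0.10) and Dex (0.43 ± 0.10, limma adjusted p = 0.0498 and 0.00855). Without WT vehicle 1 its value under vehicle was 0.25, not called (adjusted p = 0.0861). Among 13 further transcription factors and negative regulators, 5 were higher and 1 lower in GR-C3 under vehicle. They were led by the Jak inhibitor Socs3 (0.75 ± 0.13) and the transcription factor Irf5 (0.78 ± 0.16), with Pias1, a SUMO ligase, lower (-0.75 ± 0.21, and -0.43 without WT vehicle 1). Of 11 usable sensor adaptors and kinases, the RNA sensor Tlr7 (-2.35 ± 0.39) and Tlr4 (-0.71 ± 0.17) were lower and the adaptor Myd88 (0.39 ± 0.11) higher under vehicle. These named genes other than Il10rb were also called in the same direction without WT vehicle 1, with Tlr7 at -1.80.

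Of 40 further interferon-induced genes, 10 were lower and 4 higher in GR-C3 under vehicle, beside 10.2% and 14.6% of all genes. Under Dex 11 were lower and 5 higher, beside 12.1% and 17.5%. The cytidine deaminase Apobec3 (-1.90 ± 0.19), Trim30a (-1.46 ± 0.15) and the MHC class I heavy chain H2-K1 (-0.88 ± 0.11) were lower, and Slfn2 was higher (1.48 ± 0.09), with limma adjusted p of 4.77e-05, 7.07e-05, 0.000265 and 1.47e-06. For Dex in WT 0 of the 40 were called with 12 arrays. Without WT vehicle 1, 9 were lower and 1 higher, beside 6.85% and 5.38% of all genes. The GTPases Irgm1 and Ifi47 were at -1.45 ± 0.10 and -1.16 ± 0.11, and the exonuclease Isg20 at 0.98 ± 0.08. In GR-C3 the same fit called 4 lower and 1 higher, beside 1.37% and 2.09% of all genes, with Irgm1 and Ifi47 both at -0.71. The interaction was called for Irgm1 (0.74 ± 0.14) and Isg20 (-0.64 ± 0.11), with limma adjusted p of 0.0378 and 0.0235. Among all genes it was called for 0.322% higher and 0.816% lower.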

How the data were processed

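Total RNA of 12 samples was hybridised to 12 one-colour Agilent arrays. Each deposited scanner file gives an intensity per spot that, per the file headers, Agilent Feature Extraction 9.5.3.1 had background-subtracted and detrended. The deposited series matrix held the same intensity values for all 45018 spots. From these the log2 processed signal minus the array's 75th percentile was computed. The 1639 control spots and spots with outlier calls were left out, spots of 1 probe were averaged, 30935 probes were kept and 20836 genes tested. Groups came from the labels. Group means were fitted with lmFit and eBayes (limma 3.58.1, R 4.3.3), with Benjamini-Hochberg adjustment over all genes, and the steps were tested on simulated data first. With 3 against 3 arrays the smallest exact permutation p is 0.1. Alternatives changed background correction, scaling, filter, probe choice, slide, replicate block and arrays used. Array values were given for members called in any comparison, and of other lists up to 4 called genes per comparison with the smallest p. Probe positions in the files are of an older mouse build. Only their chromosome was used, to compare it with RefSeq for usable probes of the members. Members and lists were chosen with earlier results of these data known.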

Additional observations from a re-analysis of the deposited data

Results flagged for a closer look

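By the limma interaction term without WT vehicle 1, the Dex response was called as different between genotypes for 4 members. The Dex change in GR-C3 minus that in WT was 0.80 for Irf1, -0.77 for Samhd1, 1.26 for Oas1d and 1.31 for Tgtp1. With all 12 arrays 0 members were called, with values of 0.47, -0.35, 1.24 and 0.59 in the same order. With slide as a block these 4 were not called either. The probes of Tgtp1 disagree, and their mean gave 0.89 without WT vehicle 1, not called. Oas1d has a dim probe, and its value turned to -1.68 with 12 arrays and normexp on the deposited backgrounds. With GR-C3 Dex 1 alone left out, Oas1d was called (1.24, adjusted p = 0.0498).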

How the results depend on the processing

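Of the 1680 comparisons of a result with an alternative, 1360 kept direction and side of the threshold, 158 lost and 138 gained a call. In 17 the sign turned with no call in either, and in 7 it turned with a call in at least 1. The 1360 include results called in neither. They also include the series matrix alternative, which held the same intensities and could not differ. Their share is therefore no measure of robustness. Total calls among members for Dex in WT, 0 with 12 arrays, were 10 with slide as a block, with or without WT vehicle 1, and 10 within 1 slide. Without that array they were 14, 14 with quantile scaling, 12 with normexp on repaired local backgrounds and 15 with the mean of a gene's probes, an alternative added after seeing the data. For Dex in GR-C3, 1 call became 0 with either normexp correction or with detection required on all arrays, and 3 with only the groups compared. Without WT vehicle 1 it became 3, 4 with quantile scaling and 2 with repaired normexp. For the interaction, 0 calls became 1 without GR-C3 Dex 1. Without WT vehicle 1 they became 4, 4 with quantile scaling, 3 with repaired normexp and 3 with probe means. Genotype calls fell to 1 with normexp under vehicle and to 1 under Dex, and to 10 with slide as a block under Dex, with or without WT vehicle 1. Calls over all genes moved too. With normexp they fell from 5160 to 377 for genotype under vehicle and from 6175 to 455 under Dex. Without WT vehicle 1 they rose from 25 to 2548 for Dex in WT. In the same fit they rose from 21 to 722 for Dex in GR-C3 and from 0 to 237 for the interaction. Leaving out 1 array gave 0 to 14 calls for Dex in WT, 1 to 3 for Dex in GR-C3, 0 to 4 for the interaction, 11 to 19 for genotype under vehicle and 10 to 22 under Dex. The causes were not tested.

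Normexp turned the sign of genotype under vehicle for Mx2 (0.25), Oas1d (0.65) and Oas2 (0.77), and of Oas1d under Dex (-1.03). It also turned values without a call over 12 arrays: for Dex in WT Ifit1 (0.88), Iigp1 (1.58), Mx2 (1.72), Parp14 (0.82), Tgtp1 (0.22) and Ifih1 (0.72), for the interaction Oas1d (-1.68) and Tgtp1 (-0.34), for genotype under Dex Ifih1 (-0.35) and Oasl1 (-0.83), and Samhd1 under vehicle, from 0.04 to near 0. Repaired normexp turned Oas1d (0.072) and Oas2 (0.17, and 0.076 without WT vehicle 1). Normexp on the deposited backgrounds moved the median of all genes to 0.55 for Dex in WT, 0.29 for genotype under vehicle and -0.40 under Dex. With replicate number as a replicate block, calls were 0 for Dex in WT, 1 for Dex in GR-C3, 15 and 16 for genotype under vehicle and Dex, and 0 for the interaction. Deviations of same-numbered arrays from their group means had correlations of -0.22 to 0.21, with 4 of 18 above 0.1. Those of differently numbered arrays were -0.29 to 0.29, with 5 of 36 above 0.1. As each group mean holds 3 arrays, WT vehicle 1 among them, these values cannot settle whether the numbers pair the arrays. Dim probes such as Oas2, Oasl1 and Oas1d are limited by their signal over background.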
